A study of Mus musculus with 6 samples.

Results

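Interferon-stimulated genes are the genes that cells switch on when interferon binds its receptor. The 9 genes described here are Irf7, Isg15, Usp18, Ifit1, Ifit3, Oasl2, Rsad2, Bst2 and Ifi27l2a. They were taken by name from tables that list 17060 genes with reads in at least 1 culture, and all 9 had reads in every culture and enough reads to be tested, among 12306 tested genes. The cultures were grown from BM of WT mice after removal of cells with lineage markers, which leaves mainly stem and progenitor cells, in EPO-containing medium, which drives them toward erythroblasts. The study's methods name C57BL/6 as the WT strain for its drug screen. One group of 3 cultures was given 10 μM NUP-17d, a small-molecule inhibitor of pleckstrin-2, and the other group of 3 received the vehicle DMSO, both for 48 hours. Ages of the mice and pooling of animals are not given in the sources used here, nor is it said whether the 3 cultures of a group came from separate animals. P values therefore measure the spread between these 6 libraries only.

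Type I interferons bind the receptor chains IFNAR1 and IFNAR2, which activate the kinases JAK1 and TYK2. These phosphorylate STAT proteins, which join IRF9 and bind the interferon-stimulated response element (ISRE) in the promoters of the target genes. Many target genes are also read at a low level without added interferon. Blood progenitors meet interferons in infection and inflammation. No interferon was part of the treatment here, so the values below are levels in culture with and without NUP-17d.

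Promoter sequence is shown first, because the genes that share the response element did not move together. RefSeq promoter windows (GRCm38.p6) were found for 7 of the 9 genes. The 250 bases before each start were searched on both strands for the ISRE core, GAAA, any 2 bases and GAAA again, which reads TTTC, any 2 bases and TTTC on the other strand. It was found in 5 of the 7, against 2.98% of the 32851 windows of the same length in the table. The second interferon motif, the gamma-activated site (TTC, any 3 bases and GAA), was found in 1 of the 7, Bst2, where it shares bases with an ISRE core, against 7.02% of all windows. The last 160 bases before the start are printed for the 5 genes with an ISRE core, 5′ to 3′ on the strand of the gene, with ISRE matches alone in capitals. A run of capitals longer than 10 bases holds overlapping matches. They lie at chr4:156200819-156200978 (minus strand) for Isg15, at chr8:71537473-71537632 (minus strand) for Bst2, at chr12:26456453-26456612 (minus strand) for Rsad2, at chr19:34583369-34583528 (plus strand) for Ifit3 and at chr19:34640729-34640888 (plus strand) for Ifit1.
Ifit1: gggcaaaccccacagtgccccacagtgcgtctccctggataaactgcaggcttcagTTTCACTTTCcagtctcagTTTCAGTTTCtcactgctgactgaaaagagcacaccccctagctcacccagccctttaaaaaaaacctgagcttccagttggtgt
Ifit3: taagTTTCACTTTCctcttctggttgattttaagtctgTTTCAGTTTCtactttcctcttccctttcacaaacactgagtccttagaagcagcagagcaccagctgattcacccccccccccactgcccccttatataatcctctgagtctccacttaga
Rsad2: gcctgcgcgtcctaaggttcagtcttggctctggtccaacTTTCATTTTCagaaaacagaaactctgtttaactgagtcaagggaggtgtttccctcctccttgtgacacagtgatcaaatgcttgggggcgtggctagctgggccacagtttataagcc
Isg15: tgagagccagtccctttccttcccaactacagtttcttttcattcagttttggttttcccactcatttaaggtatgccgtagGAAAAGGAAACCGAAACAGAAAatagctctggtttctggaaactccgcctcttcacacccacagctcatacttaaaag
Bst2: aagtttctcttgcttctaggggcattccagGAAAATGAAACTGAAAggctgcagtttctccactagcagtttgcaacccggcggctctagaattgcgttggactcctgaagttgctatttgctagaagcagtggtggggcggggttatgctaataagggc
Ifit1 and Ifit3 each held 2 matches, and the letters of these matches were TTTCACTTTC and TTTCAGTTTC in both. Isg15 held 3 overlapping matches, Bst2 held 2 and Rsad2 held 1. Of these 5 genes, Ifit1 and Bst2 were higher with NUP-17d, Ifit3 and Rsad2 were lower and Isg15 showed no difference, as given below. In the Oasl2 and Irf7 windows these letters were not found. A match describes the sequence only and says nothing of binding.

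Values are given as CPM (counts scaled to a fixed library size) after TMM normalization, which corrects for differences in library composition, and fold changes are NUP-17d over DMSO on the log2 scale with their standard error. Composition enters every comparison here, since hemoglobin genes took 18.3% to 20.3% of the expected counts in the DMSO cultures and 11.8% to 13.1% in the NUP-17d cultures. Totals were alike, at 20278433 to 20419018 expected counts with DMSO and 20076409 to 20170197 with NUP-17d. Scaling by these totals alone moved the median log2 fold change of all tested genes from 0.014 to 0.28, so a gene whose log2 fold change lies between 0 and about that size below 0 changes sign with the scaling. How much of this shift came from the hemoglobin genes was not tested. In bulk RNA, fewer cells of a type and less RNA per cell cannot be told apart.

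Of the 9 genes, 4 were higher with NUP-17d, 3 were lower and 2 did not pass an adjusted p of 0.05 (edgeR's quasi-likelihood test, Benjamini-Hochberg adjustment over all tested genes). Over all tested genes the same test called 35.3%, with 16.4% higher and 18.9% lower. The median log2 fold change of the 9 was 0.13, beside 0.014 over all tested genes. In 7 of the 9 no DMSO culture reached into the range of the NUP-17d cultures, against 46.0% of all tested genes. The 9 genes and the lists below were chosen with earlier results of these data known. Their counts beside the shares of all tested genes are therefore description only. The log2 fold changes ranged from 0.66 for Ifit1 to -0.75 for Ifit3, with Ifi27l2a at -0.63 and the other 6 between -0.40 and 0.34. With library totals only, 6 were called higher and the same 3, Rsad2, Ifi27l2a and Ifit3, were called lower, against 68.7% and 5.34% of all tested genes.

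**Figure D1:**
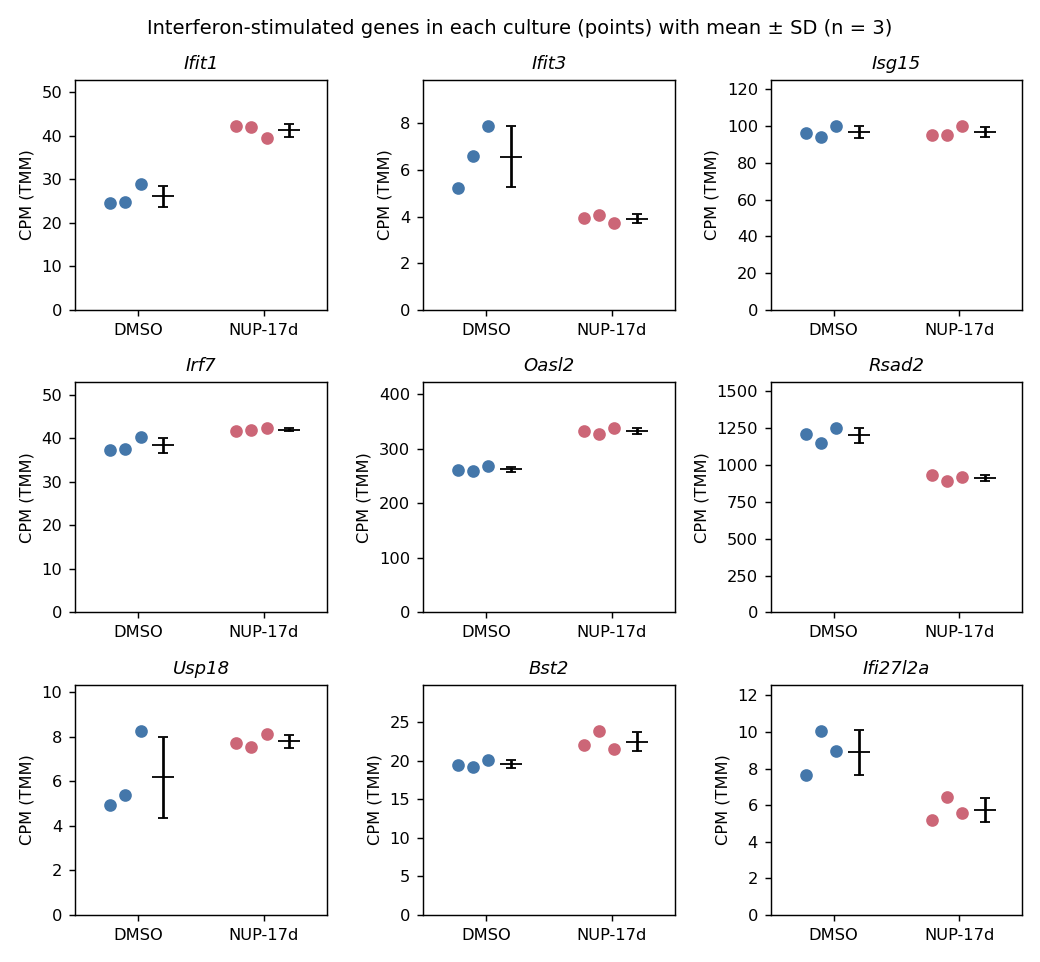
TMM-normalized CPM of each of the 9 genes (linear axes from 0) in the 3 DMSO cultures (blue points) and the 3 NUP-17d cultures (red points), with the mean and SD of each group (n = 3) as a black bar. Ifit1 and Oasl2 lie higher in all NUP-17d cultures, Rsad2, Ifit3 and Ifi27l2a lie lower, and Isg15 overlaps at a mean of 96.8 CPM with DMSO and 96.7 CPM with NUP-17d.

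Before the comparison, the levels per transcript length were set side by side as FPKM, the authors' value per kilobase of transcript and unit of library size. Rsad2, which encodes viperin, an enzyme that makes a chain-terminating nucleotide against viral replication, stood highest in DMSO with 277.9, 277.5 and 297.9 FPKM in cultures 1, 2 and 3. Only 1.15% of all genes had a higher mean FPKM. Isg15, a ubiquitin-like protein that is joined to other proteins, followed with 115.4, 118.6 and 124.7 FPKM. Oasl2, a protein of the 2′-5′ oligoadenylate synthetase family, had 72.5, 75.8 and 77.4 FPKM. These 3 genes were well apart from each other and from the rest. Bst2 (mean 21.0 FPKM), Irf7 (18.9) and Ifi27l2a (18.5) came next, and the cultures of Irf7 and Ifi27l2a overlapped, as did those of Bst2 and Ifi27l2a. Ifit1 had a mean of 8.91 FPKM, and Usp18 (3.16) and Ifit3 (2.99), whose cultures overlapped, were lowest, with 49.6% and 50.4% of all genes above them. With NUP-17d the order of means was the same except that Ifit1 stood above Ifi27l2a. Their cultures, at 16.0 to 17.5 FPKM for Ifit1 and 13.04 to 16.2 FPKM for Ifi27l2a, overlapped. Of the summed FPKM of the 9 genes, Rsad2 alone made up 42.0% to 52.2%. It made up 61.8% to 72.6% of their summed CPM, which is not divided by transcript length. The sum was 1665 ± 63.6 CPM with DMSO and 1464 ± 23.5 CPM with NUP-17d (SD, n = 3 cultures). Without Rsad2 the sum of the other 8 was 464.5 ± 15.2 CPM with DMSO and 552 ± 5.06 CPM with NUP-17d, so the lower sum rested on Rsad2. With library totals only the sum of the 9 was higher with NUP-17d, by a ratio of 1.058.

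**Figure D2:**
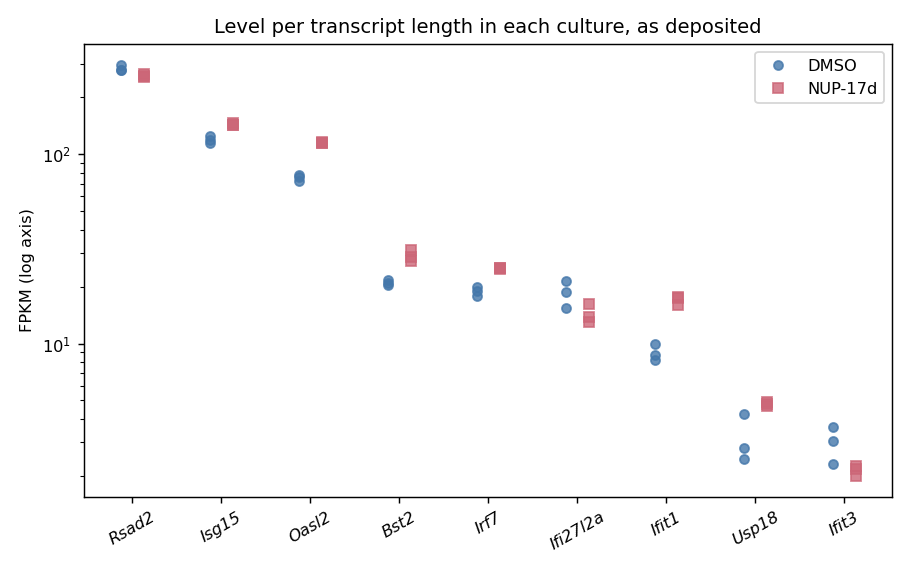
FPKM of the 9 genes as deposited (log axis), ordered by their mean in DMSO, with 1 point per culture for DMSO (blue circles) and NUP-17d (red squares). Rsad2, Isg15 and Oasl2 have 72.5 FPKM or more in all 6 cultures, and Usp18 and Ifit3 have 4.92 FPKM or less. FPKM carries no correction for composition, so differences between the groups are read from the CPM values instead.

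Irf7 (Entrez gene 54123, chr7:141262706-141266481, minus strand) encodes the transcription factor that amplifies type I interferon production. It had 37.4, 37.4 and 40.35 CPM in DMSO cultures 1, 2 and 3 and 41.6, 41.8 and 42.3 CPM in NUP-17d cultures 1, 2 and 3. All NUP-17d cultures lay above all DMSO cultures, with the highest DMSO culture close to them. The log2 fold change was 0.13 ± 0.047 (standard error, edgeR adjusted p = 0.0403). This call was lost in 5 of the 6 fits that left out a culture, all but the one without DMSO culture 3, with log2 fold changes of 0.11 to 0.13 and edgeR adjusted p-values of 0.0615 to 0.15. It was lost with DESeq2 as well (0.12, adjusted p = 0.208).

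Isg15 (Entrez gene 100038882, chr4:156199424-156200818, minus strand) did not differ between the groups by more than the spread between cultures. DMSO cultures had 96.2, 94.05 and 100.2 CPM, and NUP-17d cultures had 94.95, 95.1 and 99.9 CPM. The log2 fold change was -0.0022 ± 0.039 (edgeR adjusted p = 0.972), which is close to the median of all tested genes, and it was 0.265 with library totals only (edgeR adjusted p = 6.19e-06), again close to the median of all genes on that scale (0.28). Usp18 (Entrez gene 24110, chr6:121245906-121270917, plus strand), the protease that takes ISG15 off proteins and blocks IFNAR2 signaling, was low and variable. Its expected counts were 89, 102 and 154 with DMSO and 171, 168 and 177 with NUP-17d, or 4.92, 5.38 and 8.27 CPM against 7.73, 7.53 and 8.11 CPM. DMSO culture 3 was the highest of the 6 and the other DMSO cultures the lowest, so the groups overlapped. The log2 fold change of 0.33 ± 0.14 did not pass (edgeR adjusted p = 0.0598). With library totals only it was 0.597 and passed (edgeR adjusted p = 0.000475). On the TMM scale it was 0.595 without DMSO culture 3 (edgeR adjusted p = 0.000802). It was 0.193 without DMSO culture 1 (edgeR adjusted p = 0.317) and 0.235 without DMSO culture 2 (edgeR adjusted p = 0.258). Its size thus depended on which DMSO culture was left out.

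The genes of ISG15 conjugation were followed beside their substrate. Ube2l6, the E2 enzyme that carries ISG15, fell from a mean of 943.1 ± 29.5 CPM with DMSO to 505.9 ± 20.6 CPM with NUP-17d (SD over 3 cultures; log2 fold change -0.90 ± 0.037, edgeR adjusted p = 3.27e-16). Herc6, the main ISG15 ligase of the mouse, fell from 50.1 ± 2.98 to 45.3 ± 1.499 CPM (-0.14, edgeR adjusted p = 0.0224), but the groups overlapped, and with library totals only it was higher, at 0.125. Its call was lost with DESeq2 and without DMSO culture 1, DMSO culture 3, NUP-17d culture 2 or NUP-17d culture 3, with log2 fold changes of -0.193 to -0.114 over all 6 fits that left out a culture. Uba7, the activating E1 enzyme, had 168.9 ± 2.31 and 168.2 ± 3.64 CPM (-0.00535, edgeR adjusted p = 0.92), and Trim25, a ligase that acts in RNA sensing, had 79.8 ± 2.94 and 78.3 ± 5.33 CPM (-0.028, edgeR adjusted p = 0.678). Among Isg15, Usp18 and these 4 genes, Ube2l6 stood apart, and the others lay between -0.14 and 0.33.

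Ifit1 and Ifit3 encode tetratricopeptide-repeat proteins, of which IFIT1 binds the 5′ end of viral RNA that lacks the methylated cap of the host. Both lie in the IFIT cluster of chromosome 19, Ifit3 (Entrez gene 15959) at chr19:34583531-34588731 and Ifit1 (Entrez gene 15957) at chr19:34640871-34650009, both on the plus strand, with 52139 bases between them. Ifit1 rose from 24.6, 24.8 and 28.85 CPM in DMSO cultures to 42.3, 42.0 and 39.4 CPM in NUP-17d cultures. The groups were far apart, and the log2 fold change of 0.66 ± 0.058 was the largest rise of the 9 genes (edgeR adjusted p = 5.8e-10). Ifit3 fell from 5.25, 6.59 and 7.90 CPM with DMSO to 3.93, 4.08 and 3.71 CPM with NUP-17d. The NUP-17d cultures lay close together, below a wider DMSO group, with a log2 fold change of -0.75 ± 0.14 (edgeR adjusted p = 0.000116) on 80.6 to 146.8 expected counts.

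Reads of 50 bases cannot always be assigned within this cluster. Of the 50-base windows along the Ifit3 transcript (GENCODE vM21), 51.2% also occur in Ifit3b, and 7.13% of those along Ifit1 occur in Ifit1bl1 or Ifit1bl2, so the expected counts of Ifit3 and Ifit3b are in part a division of shared reads. Ifit3b had 1.71 ± 0.319 and 1.47 ± 0.0419 CPM (log2 fold change -0.22 ± 0.22, edgeR adjusted p = 0.46). The sum of Ifit3 and Ifit3b, an alternative added after seeing the data, gave a log2 fold change of -0.625 ± 0.11 (edgeR adjusted p = 7.19e-05), and the sum of Ifit1, Ifit1bl1 and Ifit1bl2 gave 0.52 ± 0.056 (edgeR adjusted p = 3.64e-08). The sums still moved in opposite directions. Of the other genes of the cluster, Ifit2 fell from 21.9 ± 2.17 to 16.0 ± 0.321 CPM (-0.45, edgeR adjusted p = 9.39e-06) and Ifit1bl1 fell from 3 ± 0.340 to 1.33 ± 0.135 CPM (-1.17, edgeR adjusted p = 2.06e-05). Ifit1bl2 had 2.05 ± 0.206 and 2.04 ± 0.256 CPM (-0.0070, edgeR adjusted p = 0.982). Within the cluster, Ifit1 was thus higher with NUP-17d while Ifit2, Ifit3 and Ifit1bl1 were lower, and each of the 4 kept its direction and its call with library totals only and in every fit without a culture.

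Oasl2 (Entrez gene 23962, chr5:114896936-114912234, plus strand) rose from 260.3, 258.3 and 267.4 CPM to 332.1, 327.6 and 337.3 CPM. Cultures of a group lay close together, the groups did not overlap, and the mean was 26.8% higher with NUP-17d (log2 fold change 0.34 ± 0.034, edgeR adjusted p = 5.44e-09). Its paralog Oasl1, a suppressor of IRF7 translation, had 4.95 ± 0.785 and 3.88 ± 0.111 CPM (-0.35, edgeR adjusted p = 0.0519). No 50-base window of the Oasl2 transcript occurred in another gene, while 4.47% of the Usp18 windows and 3.96% of the Isg15 windows did.

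Rsad2 (Entrez gene 58185, chr12:26442746-26456452, minus strand) was the most abundant of the 9 genes and fell from 1206, 1147 and 1248 CPM in DMSO cultures to 929.3, 888.3 and 917.5 CPM in NUP-17d cultures. The groups did not overlap, and the log2 fold change was -0.40 ± 0.037 (edgeR adjusted p = 2.01e-09). With library totals only it was -0.13 (edgeR adjusted p = 0.000907), still lower. Cmpk2, a mitochondrial nucleotide kinase encoded 12751 bases away on the other strand and often induced together with Rsad2, had 25.0 ± 2.38 CPM and 22.7 ± 1.93 CPM with overlapping groups (log2 fold change -0.14, edgeR adjusted p = 0.125). Cmpk2 was named for its position after its values were seen. Its level was far below that of Rsad2 in both groups.

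Bst2 (Entrez gene 69550, chr8:71534255-71537456, minus strand), or tetherin, holds budding virus at the cell surface. It had 19.5, 19.1 and 20.1 CPM with DMSO and 22.0, 23.9 and 21.5 CPM with NUP-17d. The groups did not overlap, and the log2 fold change was 0.20 ± 0.062 (edgeR adjusted p = 0.0135). The call was lost without DMSO culture 2 (0.182, edgeR adjusted p = 0.0566), without NUP-17d culture 2 (0.15, edgeR adjusted p = 0.0914) and with DESeq2 (0.195, adjusted p = 0.115).

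Ifi27l2a (Entrez gene 76933, chr12:103442167-103443680, minus strand) encodes a small hydrophobic protein of the IFI27 family. It fell from 7.63, 10.1 and 8.97 CPM to 5.20, 6.46 and 5.59 CPM, on 115 to 191 expected counts. The cultures did not overlap, and the log2 fold change was -0.63 ± 0.12 (edgeR adjusted p = 0.000103). Its paralog Ifi27 moved the other way, from 18.3 ± 1.07 to 28.9 ± 1.88 CPM (0.66 ± 0.064, edgeR adjusted p = 3.6e-09). Ifi27l2b had no reads in any culture, and 0.483% of the Ifi27l2a windows occur in it.

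**Figure D3:**
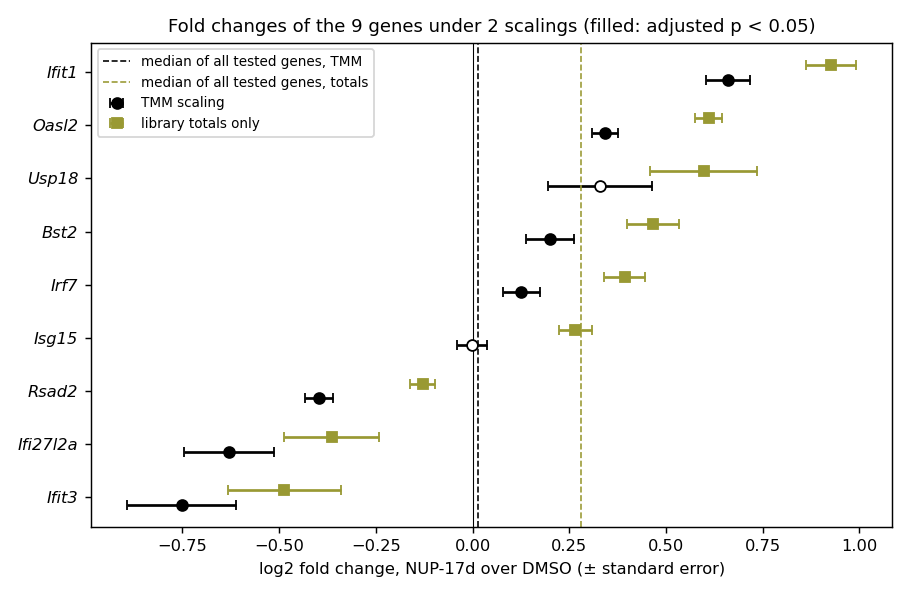
Log2 fold change of each gene, NUP-17d over DMSO, with its standard error, for TMM scaling (black circles) and for library totals only (olive squares), filled where the adjusted p was under 0.05 in edgeR; dashed lines mark the median of all tested genes on each scale (0.014 and 0.28). Ifit1, Oasl2, Usp18, Bst2 and Irf7 lie above 0 on both scales, with Usp18 filled only for library totals. Rsad2, Ifi27l2a and Ifit3 lie below 0 on both, while Isg15 sits beside the median of all genes on each.

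Upstream of these genes, transcripts of the interferons themselves were nearly absent. Of 20 interferon genes listed, 16 had no reads in any culture, and the other 4 together had 0, 2 and 1 expected counts in DMSO cultures 1, 2 and 3 and 0, 2 and 1 in NUP-17d cultures 1, 2 and 3. A count of 0 allows up to 3 counts, or 0.135 to 0.166 CPM per culture on the TMM scale, for counting error only. At this depth no difference in interferon transcripts was detectable.

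The receptor chains were expressed. Ifnar2 fell from 258.2 ± 6.09 to 208.4 ± 4.68 CPM (log2 fold change -0.31 ± 0.035, edgeR adjusted p = 6.15e-08), though with library totals only it was at -0.041 and did not pass. Ifnar1 was lower (-0.15, edgeR adjusted p = 0.00177), as was the interferon-gamma receptor chain Ifngr2 (-0.145, edgeR adjusted p = 0.00473), but both were higher by 0.12 with totals only. Ifngr1, the other chain, rose from 112.6 ± 1.76 to 122.1 ± 5.01 CPM (0.12, edgeR adjusted p = 0.0187), a call lost with DESeq2, without DMSO culture 1 and without NUP-17d culture 2 (0.0903 to 0.146 over the 6 fits that left out a culture). Il10rb (0.073, edgeR adjusted p = 0.145) and Ifnlr1, at 0.648 and 0.574 CPM, did not pass. The 6 signal transducers, kinases and transcription factors downstream of the receptors, gave no call in edgeR with TMM, where 0 of the 6 also had an unadjusted p under 0.05, and with DESeq2 0 of the 6 passed. Their log2 fold changes ran from -0.061 for Jak2 to 0.073 for Stat2, and Irf9, itself induced by interferon, had 86.5 ± 3.59 and 84.45 ± 1.54 CPM (-0.034, edgeR adjusted p = 0.543). With library totals only all 6 were higher, by 0.21 to 0.34, around the shift of 0.28 of all genes. Of 6 tested interferon regulatory factors other than Irf7, Irf8, a factor of the monocyte and dendritic lineages, rose from 131 ± 1.47 to 151 ± 3.33 CPM (0.20, edgeR adjusted p = 5.22e-05), and the other 5 did not pass, among them Irf2 (0.069) and Irf4 (0.15). All 6 were called higher with library totals only, as were 68.7% of all tested genes. Their median of 0.3 on that scale lay near the 0.28 of all genes.

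Of 23 tested nucleic acid sensors and adaptors, 1 was higher and 6 were lower, with a median log2 fold change of -0.056, against 16.4% and 18.9% of all tested genes. The calls were 16 higher and 1 lower with library totals only, with a median of 0.21, against 68.7% and 5.34% of all tested genes. Zbp1, a sensor of nucleic acids in the Z form, fell from 8.52 ± 1.22 to 5.50 ± 0.399 CPM (-0.63, edgeR adjusted p = 9.12e-05). Samhd1, which breaks down nucleotides, fell by 0.22 and Mavs, the adaptor of the RNA sensors, fell by 0.21 on the log2 scale, and both were slightly above 0 with library totals only (0.047 and 0.062). Of 12 tested negative regulators, 1 was higher and 2 were lower, with a median of -0.022, and with library totals only 9 were higher and 1 was lower, with a median of 0.245. Socs3, a feedback inhibitor of JAK kinases, fell from 18.8 ± 1.96 to 12.7 ± 0.50 CPM (-0.57, edgeR adjusted p = 1.23e-06), Otud5, a deubiquitinase, fell by 0.34 on the log2 scale but did not pass with library totals only (-0.069), and Irf2bp2, a corepressor that binds IRF2, rose by 0.33.

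The other interferon-induced genes also moved in both directions, with more calls lower than higher under TMM and more higher than lower with library totals only for the wider list. Among 14 tested genes of the IFIT, OAS and MX families, 3 were higher and 6 were lower, with a median log2 fold change of -0.24, against 16.4% and 18.9% of all tested genes. Oas3, which makes 2′-5′ oligoadenylate, rose from 106.9 ± 5.56 to 137 ± 3.78 CPM (0.36, edgeR adjusted p = 5.6e-08). Among 55 tested genes of a wider list of type I interferon-induced genes, 7 were higher and 20 were lower, with a median of -0.115. Isg20, an exonuclease that degrades single-stranded RNA, fell from 462.2 ± 18.4 to 246.6 ± 8.81 CPM (-0.91, edgeR adjusted p = 3.21e-16). Ms4a4c, a membrane protein of the MS4A family, fell from 48.1 ± 4.38 to 27.5 ± 0.385 CPM (-0.81, edgeR adjusted p = 7.43e-12). With library totals only, the calls were 3 higher and 5 lower of the 14 and 28 higher and 5 lower of the 55, against 68.7% and 5.34% of all tested genes, while the named genes kept their directions.

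Among 15 tested GTPases induced mainly by interferon-gamma, 0 were higher and 6 were lower, with a median log2 fold change of -0.23, against 16.4% and 18.9% of all tested genes, and with library totals only 5 were higher and 2 were lower, with a median of 0.032. Gbp2 fell from 10.6 ± 0.499 to 6.90 ± 0.516 CPM (-0.62, edgeR adjusted p = 8.3e-06) and Gbp5 fell by 0.58 on the log2 scale. Gvin1, at 1398 ± 57.8 and 1266 ± 47.2 CPM, was lower by 0.14 but higher, at 0.125, with library totals only. Of 3 tested interferon-induced chemokines, Cxcl10 had 3.43 ± 0.688 and 2.26 ± 0.797 CPM and was called lower (-0.60, edgeR adjusted p = 0.0243) with overlapping groups. That call was lost with library totals only, with DESeq2 and without DMSO culture 3, NUP-17d culture 1 or NUP-17d culture 3 (-0.911 to -0.397 over the 6 fits that left out a culture). Cxcl9 (1.025 and 1.09 CPM) and Ccl5 (2.32 and 2.04 CPM) did not pass, and Cxcl11 was under the filter. Of 14 tested genes of class I antigen presentation, 7 were higher and 1 was lower, with a median of 0.11, against the same 16.4% and 18.9%. Scaled by library totals only, 13 were higher and 1 was lower, with a median of 0.37, against 68.7% and 5.34% of all tested genes. B2m, the light chain of class I molecules, rose from 735.8 ± 25.7 to 959.4 ± 37.5 CPM (0.38, edgeR adjusted p = 4.82e-09), and H2-D1, a classical heavy chain, rose from 660.5 ± 1.43 to 830.1 ± 13.2 CPM (0.33, edgeR adjusted p = 9.18e-09). H2-T23, a nonclassical heavy chain, fell from 280.5 ± 5.80 to 219.3 ± 7.38 CPM (-0.355, edgeR adjusted p = 7.26e-09). Class I heavy chains have close copies that may share reads, which makes these values uncertain.

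**Figure D4:**
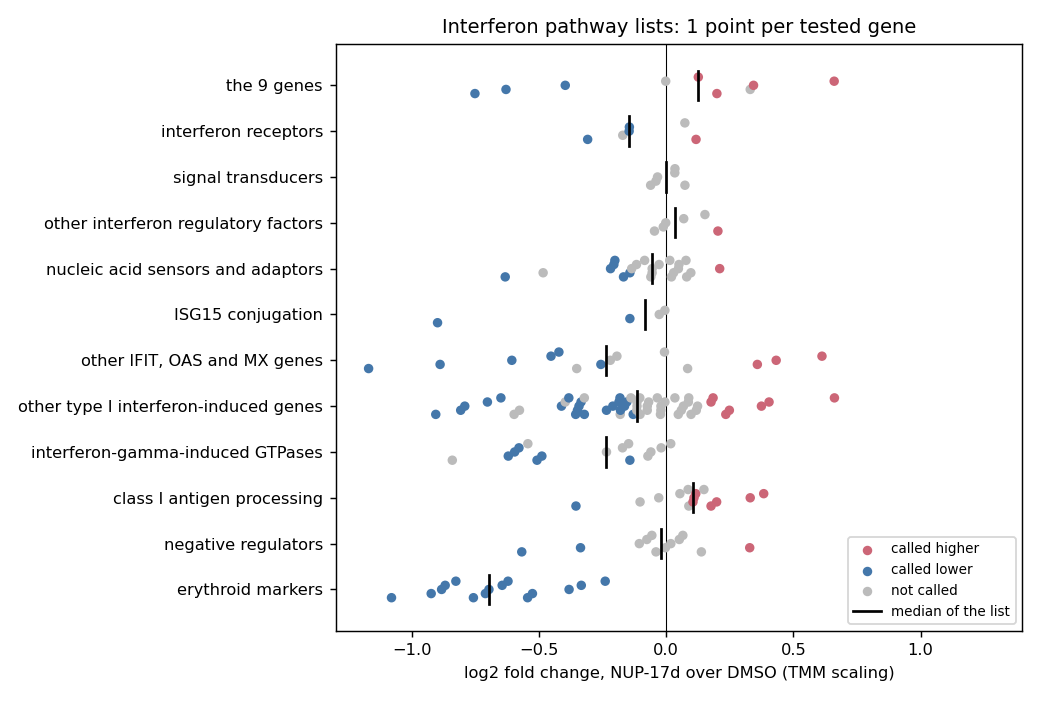
Log2 fold change, NUP-17d over DMSO with TMM scaling, of each tested gene in the interferon pathway lists and the erythroid marker list, red where called higher, blue where called lower and gray where not called (edgeR, adjusted p under 0.05), with a black bar at the median of each list. The 6 signal transducers lie between -0.061 and 0.073 and the interferon-gamma-induced GTPases have a median of -0.23. With library totals only the median of all tested genes moves from 0.014 to 0.28, and 8 called genes of the type I list, 5 of the sensors, 2 of the receptors and 1 each of the ISG15 conjugation, IFIT, GTPase and erythroid lists take the other sign.

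Cell type markers were followed beside the 9 genes, against 16.4% of all tested genes called higher and 18.9% lower. All 15 erythroid markers, among them Alas2, Klf1 and hemoglobin genes, were lower with NUP-17d, at a median of -0.70 on the log2 scale. With library totals only 13 of 15 were lower, and Klf1 (0.028) and Gata1 (-0.067) did not pass. The 15 markers summed to 221200 to 255400 CPM with DMSO and 122400 to 136900 CPM with NUP-17d. Markers of cells that carry high IRF7 or BST2, the plasmacytoid dendritic cells, were at low levels, with a summed level of 109.4 to 121.2 CPM with DMSO and 134.3 to 139.2 CPM with NUP-17d. Of the 9 tested, 4 were higher and 0 were lower, and Siglech, their defining surface lectin, rose from 22.0 ± 1.79 to 30.4 ± 1.07 CPM (SD, n = 3 cultures, edgeR adjusted p = 7.4e-07). Of 15 monocyte and macrophage markers 3 were higher and 5 lower, with summed levels of 2026 to 2172 and 2122 to 2295 CPM. Of 12 neutrophil markers 3 were higher and 1 lower (4137 to 4301 and 4245 to 4525 CPM), and of 9 megakaryocyte markers 7 were higher and 0 lower (481.2 to 530.7 and 560.5 to 580.2 CPM). Of 6 dendritic cell markers 0 were higher and 3 lower, of 7 tested mast cell and basophil markers 1 was higher and 3 were lower, of 9 tested lymphocyte markers 0 were higher and 2 lower, and of 6 tested stem and progenitor markers 3 were higher and 1 lower. Calls higher and lower with library totals only were 9 and 0 for the plasmacytoid list, 9 and 0 for the monocyte list, 10 and 0 for the neutrophil list, 9 and 0 for the megakaryocyte list and 5 and 0 for the stem cell list, against 68.7% and 5.34% of all tested genes. They were 3 and 3 for the dendritic list, 3 and 0 for the mast cell list and 2 and 1 for the lymphocyte list. Each marker list had reads, and Mcpt4 of the mast cell list had none. The dendritic cell markers summed to 64.4 to 69.96 CPM with DMSO and 56.25 to 58.6 CPM with NUP-17d. The part of these marker levels in the values of the 9 genes was not tested.

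As a description of likeness, each gene was compared with the mean z-score of the 9 genes over the 6 cultures. Among 9754 genes whose mean count reached 100, those with the highest Pearson correlation included Rcn2 (0.986), Mesd (0.972), Rrp7a (0.969) and Gde1 (0.966). These correlations rest on only 6 cultures that share their treatment contrast. The mean z-score averages genes that moved in opposite directions between the groups, so likeness to it is not likeness to each of the 9 genes. The mean z-score set DMSO culture 3 (0.445) apart from DMSO cultures 1 and 2 (-0.501 and -0.408) and put the NUP-17d cultures in between (0.0276 to 0.242). In Ifit1, Ifit3, Isg15, Irf7, Oasl2, Rsad2, Usp18 and Bst2, DMSO culture 3 was the highest of the 3 DMSO cultures.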

How the data were processed

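Lineage-negative BM cells from WT mice were cultured with DMSO or NUP-17d, and poly(A) RNA was sequenced from 3 cultures per group. Per the labels, cDNA was made with random primers and read on a DNBseq instrument, while the study's methods name a stranded kit and another instrument, so strand handling is not known. The authors deposited 1 table per culture with expected counts (estimated reads per gene, shared reads divided among genes) and FPKM, on mm10 per the submitters' processing notes. The aligner and counting program are not given in the sources used here. A gene missing from a table was counted as 0.

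Expected counts were rounded, filtered with filterByExpr, scaled with TMM and tested with edgeR's quasi-likelihood test (edgeR 4.0.16, R 4.3.3), NUP-17d against DMSO without covariates, with Benjamini-Hochberg adjustment over 12306 genes and a threshold of 0.05. Standard errors are the log2 fold change divided by the square root of F. Alternatives were DESeq2 1.42.0, RLE factors, library totals only, no hemoglobin genes, no filter, limma 3.58.1 on FPKM, log2-transformed after adding 1 or 0.1, over genes whose mean FPKM reached 1 and once over all genes, a replicate block, each culture left out and, added after seeing the data, paralogs summed. Totals were 20076409 to 20419018 expected counts per culture. Replicates of a group differed by more than sampling noise, so none was merged. The 9 genes, the pathway lists and the marker lists were chosen with earlier results of these data known. Beside the 9, genes were named by rule, which took up to 3 genes a list with the lowest p, all genes of lists of 6 or fewer, paralogs that could share reads, and the 5 genes most like the mean z-score. Some genes that this rule names are not reported here. Gene positions are from GENCODE vM21 (GRCm38) and promoters from RefSeq.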

Additional observations from a re-analysis of the deposited data

How the results depend on the processing

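Ifit1, Oasl2, Rsad2, Ifi27l2a and Ifit3 kept their direction under every alternative run, as did Irf7, Bst2 and Usp18. Irf7 and Bst2 lost their calls with DESeq2, which left 2 of the 9 genes called higher, and limma on log2(FPKM + 1) without a filter left 1 called lower, with Ifit3 at -0.335 and Ifi27l2a at -0.341 not passing. Leaving out 1 culture gave 5 to 8 of the 9 called, 2 to 5 higher (2 without DMSO culture 2 or NUP-17d culture 2) and 3 lower in each fit. Isg15, at -0.0022 and not called in the main test, took the other sign with library totals only (0.265), without a filter (0.00189), with limma on log2(FPKM + 1) (0.267, also without a filter) and on log2(FPKM + 0.1) (0.269), and ranged from -0.0282 to 0.0226 when 1 culture was left out (0.0226 without DMSO culture 3, 0.0102 without NUP-17d culture 1, 0.0103 without NUP-17d culture 2). The ratio of the summed level, 0.8792 with TMM, was 1.058 with library totals only and 1.107 for FPKM.

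The pathway lists held 158 genes tested in edgeR. With TMM 21 of them were higher and 47 lower, against 16.4% and 18.9% of all tested genes. DESeq2 called 1162 genes higher over all and 13 higher in the pathway lists, where edgeR called 2019 and 21. DESeq2 and limma tested other numbers of genes. Library totals only gave 9115 calls (8458 higher, 657 lower), or 68.7% higher and 5.34% lower of all tested genes. In the pathway lists it gave 109 calls among the 158 tested genes (93 higher, 16 lower). Limma on log2(FPKM + 1) gave 8458 (7891 higher, 567 lower) and 91 higher and 11 lower in the pathway lists, on log2(FPKM + 0.1) 8323 (7768 and 555) with 85 and 11, and without a filter 8651 (8012 and 639) with 83 and 13. Of all calls 46.5% were higher with TMM and 92.8% with library totals only. These totals and FPKM carry no correction for composition. Leaving out 1 culture gave 3713 to 4008 calls over all genes (1642 to 1827 higher, 2035 to 2181 lower) and 51 to 71 in the pathway lists (16 to 20 higher, 33 to 53 lower).

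Deviations from the group means were unrelated between same-numbered cultures (correlations of 0.0335, -0.021 and -0.0324), so no pairing by number was visible. This cannot tell whether same-numbered cultures came from one cell preparation, which the sources used here do not state. With a replicate block Usp18 was called higher (0.341, edgeR adjusted p = 0.0253), and no other call among the 9 changed. Usp18 was also called higher with library totals only and in every limma run. Depth limits Ifit3, Usp18 and Ifi27l2a most, at 80.6 to 191 expected counts per culture.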
